A study of Homo sapiens with 29 samples.

Results

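The genes described here are 10 immediate-early response genes, FOS, FOSB, FOSL2, JUN, JUNB, JUND, EGR1, ATF3, IER2 and MYC, of 20162 annotated protein-coding genes. The list was chosen with earlier results of these data known. Occupancy by the INO80 chromatin remodelling complex and by the transcription factor YY1 had been mapped by ChIP-seq, which sequences DNA pulled down with an antibody to a chromatin protein, in HepG2 and Huh7, established human liver cancer cell lines. For each gene, every peak was collected that shared at least 1 bp with the gene span plus 5 kb on either side. These windows held 164 of the 151036 peaks in the 9 deposited lists. The windows of the 10 genes were short, with a median of 15843 bp against 37220 bp over all coding genes.

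The study's own cells used here were kept in DMEM with 10% fetal bovine serum and antibiotics, and their labels name no drug, serum withdrawal or stimulus. HepG2 had 3 libraries for INO80 and 2 each for MCRS1, RUVBL1 and RUVBL2. Huh7 had 2 each for INO80, MCRS1, RUVBL2 and YY1. The YY1 peaks of HepG2 come from public ENCODE reads that the submitters put through the same steps, so line and laboratory cannot be told apart for YY1, and how those cells were cultured is unknown here. The INO80 antibody came from 2 lots in HepG2 and from 1 of these in Huh7. Whether the libraries within a group stem from different cultures is not stated. Each factor and line has 1 peak list, so no value below has a replicate error, no difference between lines or factors could be tested, and the read depth behind the peaks is unknown. The lists give positions only, so peaks are described by width, which is at least 147 bp in all 9 lists. Whether width follows the strength of binding is unknown here. In HepG2 the lists held 23665 peaks for INO80, 23425 for MCRS1, 5518 for RUVBL1, 12936 for RUVBL2 and 39293 for YY1. In Huh7 they held 15303 for INO80, 6020 for MCRS1, 3322 for RUVBL2 and 21554 for YY1. A narrower or missing peak in Huh7 is to be read beside these shorter lists. A peak reports occupancy, not expression. INO80 peaks lay at 8 of 8 hepatocyte marker genes and 4 of 7 markers of other cell types in HepG2 (71.2% of all coding genes), and at 5 of 8 and 1 of 7 in Huh7 (56.9%). YY1 peaks lay at 8 of 8 and 7 of 7 in HepG2 (76.8%), so YY1 presence did not separate the marker lists there, and at 7 of 8 and 2 of 7 in Huh7 (62.8%).

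Immediate-early genes are switched on within minutes of a growth signal or stress without new protein synthesis. Kinase cascades act on factors already bound at their promoters, chiefly serum response factor with its partners at CArG boxes and CREB family factors at cyclic AMP response elements (CRE). FOS and JUN proteins pair to form AP-1, which in liver takes part in regeneration and in tumour growth. INO80 is the ATPase of its complex and slides nucleosomes, MCRS1 is a subunit, RUVBL1 and RUVBL2 are ATPases shared with other complexes, and YY1 binds DNA by itself and with the complex.

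The 300 bases before the start are shown for the 4 genes whose start lay under a peak in the most lists and for JUND, where it did so in the fewest. MYC and IER2 are left out, since their windows are annotated as untranslated sequence of an upstream start or a neighbour. Each run reads 5′ to 3′ in the direction of transcription on hg19. Capitals mark matches, on either strand, to the motifs searched: the CRE TGACGTCA, its core TGACG, the AP-1 site TGANTCA, the YY1 core GCCATNTT, the EGR site GCGTGGGCG, the E-box CACGTG, the TATA box TATAAA and the CArG box.
JUN, chr1:59249720-59250019, minus strand: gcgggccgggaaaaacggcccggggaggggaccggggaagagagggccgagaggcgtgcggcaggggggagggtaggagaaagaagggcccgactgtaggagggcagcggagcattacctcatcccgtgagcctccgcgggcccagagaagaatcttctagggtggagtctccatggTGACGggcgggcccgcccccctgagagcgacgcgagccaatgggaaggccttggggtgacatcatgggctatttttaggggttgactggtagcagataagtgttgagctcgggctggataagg
FOSL2, chr2:28615425-28615724, plus strand: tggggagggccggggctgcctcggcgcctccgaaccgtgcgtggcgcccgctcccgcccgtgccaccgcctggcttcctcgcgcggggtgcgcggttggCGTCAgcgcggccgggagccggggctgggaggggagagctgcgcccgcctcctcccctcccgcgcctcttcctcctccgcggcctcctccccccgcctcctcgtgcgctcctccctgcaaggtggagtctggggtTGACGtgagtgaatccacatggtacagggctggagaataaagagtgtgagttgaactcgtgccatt
ATF3, chr1:212781803-212782102, plus strand: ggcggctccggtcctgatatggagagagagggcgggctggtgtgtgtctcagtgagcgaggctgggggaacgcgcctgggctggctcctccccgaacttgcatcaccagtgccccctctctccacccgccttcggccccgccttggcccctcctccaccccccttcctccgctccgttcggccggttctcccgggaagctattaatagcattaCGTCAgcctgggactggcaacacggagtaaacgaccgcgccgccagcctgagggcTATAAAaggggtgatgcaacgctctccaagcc
EGR1, chr5:137800868-137801167, plus strand: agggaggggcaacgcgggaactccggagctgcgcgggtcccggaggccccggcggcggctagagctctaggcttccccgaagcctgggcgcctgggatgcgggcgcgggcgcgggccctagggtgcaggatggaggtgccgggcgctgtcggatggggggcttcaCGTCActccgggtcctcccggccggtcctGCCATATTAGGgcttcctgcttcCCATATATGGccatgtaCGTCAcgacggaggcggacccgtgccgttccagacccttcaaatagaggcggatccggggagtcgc
JUND, chr19:18392433-18392732, minus strand: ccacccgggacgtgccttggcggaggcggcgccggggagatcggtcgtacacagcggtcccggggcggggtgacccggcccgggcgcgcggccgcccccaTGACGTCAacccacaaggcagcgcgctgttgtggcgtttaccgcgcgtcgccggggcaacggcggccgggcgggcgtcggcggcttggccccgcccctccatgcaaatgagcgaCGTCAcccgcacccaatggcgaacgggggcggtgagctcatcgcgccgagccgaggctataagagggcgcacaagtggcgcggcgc

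The CRE core was the motif these promoters shared. It was found before the start of 9 of the 10 genes, all except MYC, and in 27.9% of 20054 promoters of the same length. The whole CRE, which contains that core on both strands, was found at JUND alone, 200 to 193 bases before the start, and in 2.55% of promoters. TATA boxes stood 33 to 24 bases before the start at FOS, FOSB, JUNB, ATF3 and MYC, and anywhere in the window in 11.2% of promoters. CArG boxes were found at EGR1 and FOSB, and in 1.41% of promoters. EGR1 had a pair of them, and the distal one, 105 to 96 bases before the start, overlaps a YY1 core match. IER2 also held a YY1 core, 53 to 46 bases before the start, and 4.32% of promoters did. Exact matches to the AP-1 site TGANTCA, the EGR site and the E-box, in 5.76%, 1.18% and 8.89% of promoters, were in none of the 10 windows. Other forms of these sites were not searched at any gene, JUN included. GC content ran from 64.3% to 75.0%, all above the median of 62.0%, and JUND was the richest. A match describes letters, not binding.

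Almost every immediate-early gene carried INO80, MCRS1 and YY1, and most carried the RUVBL ATPases as well. In HepG2, INO80, MCRS1 and YY1 each lay at 10 of the 10 genes, against 71.2%, 66.3% and 76.8% of all coding genes. RUVBL2 lay at 9, all except ATF3, against 47.3%, and RUVBL1 at 7, all except FOS, JUNB and ATF3, against 24.3%. In Huh7, INO80 and YY1 each lay at 9, all except FOSB, against 56.9% and 62.8%. MCRS1 lay at 8, all except FOS and FOSL2, against 28.5%, and RUVBL2 at 6, all except FOS, FOSL2, ATF3 and MYC, against 18.1%. JUN, JUND, EGR1 and IER2 held a peak in all 9 lists, as did 8.79% of coding genes, and 6 of the 10 did in at least 8 lists, as did 19.2%. FOS and ATF3 held the fewest, with 6 lists each. The shares for all coding genes are given to read the counts against, and no test of the list was made.

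**Figure D1:**
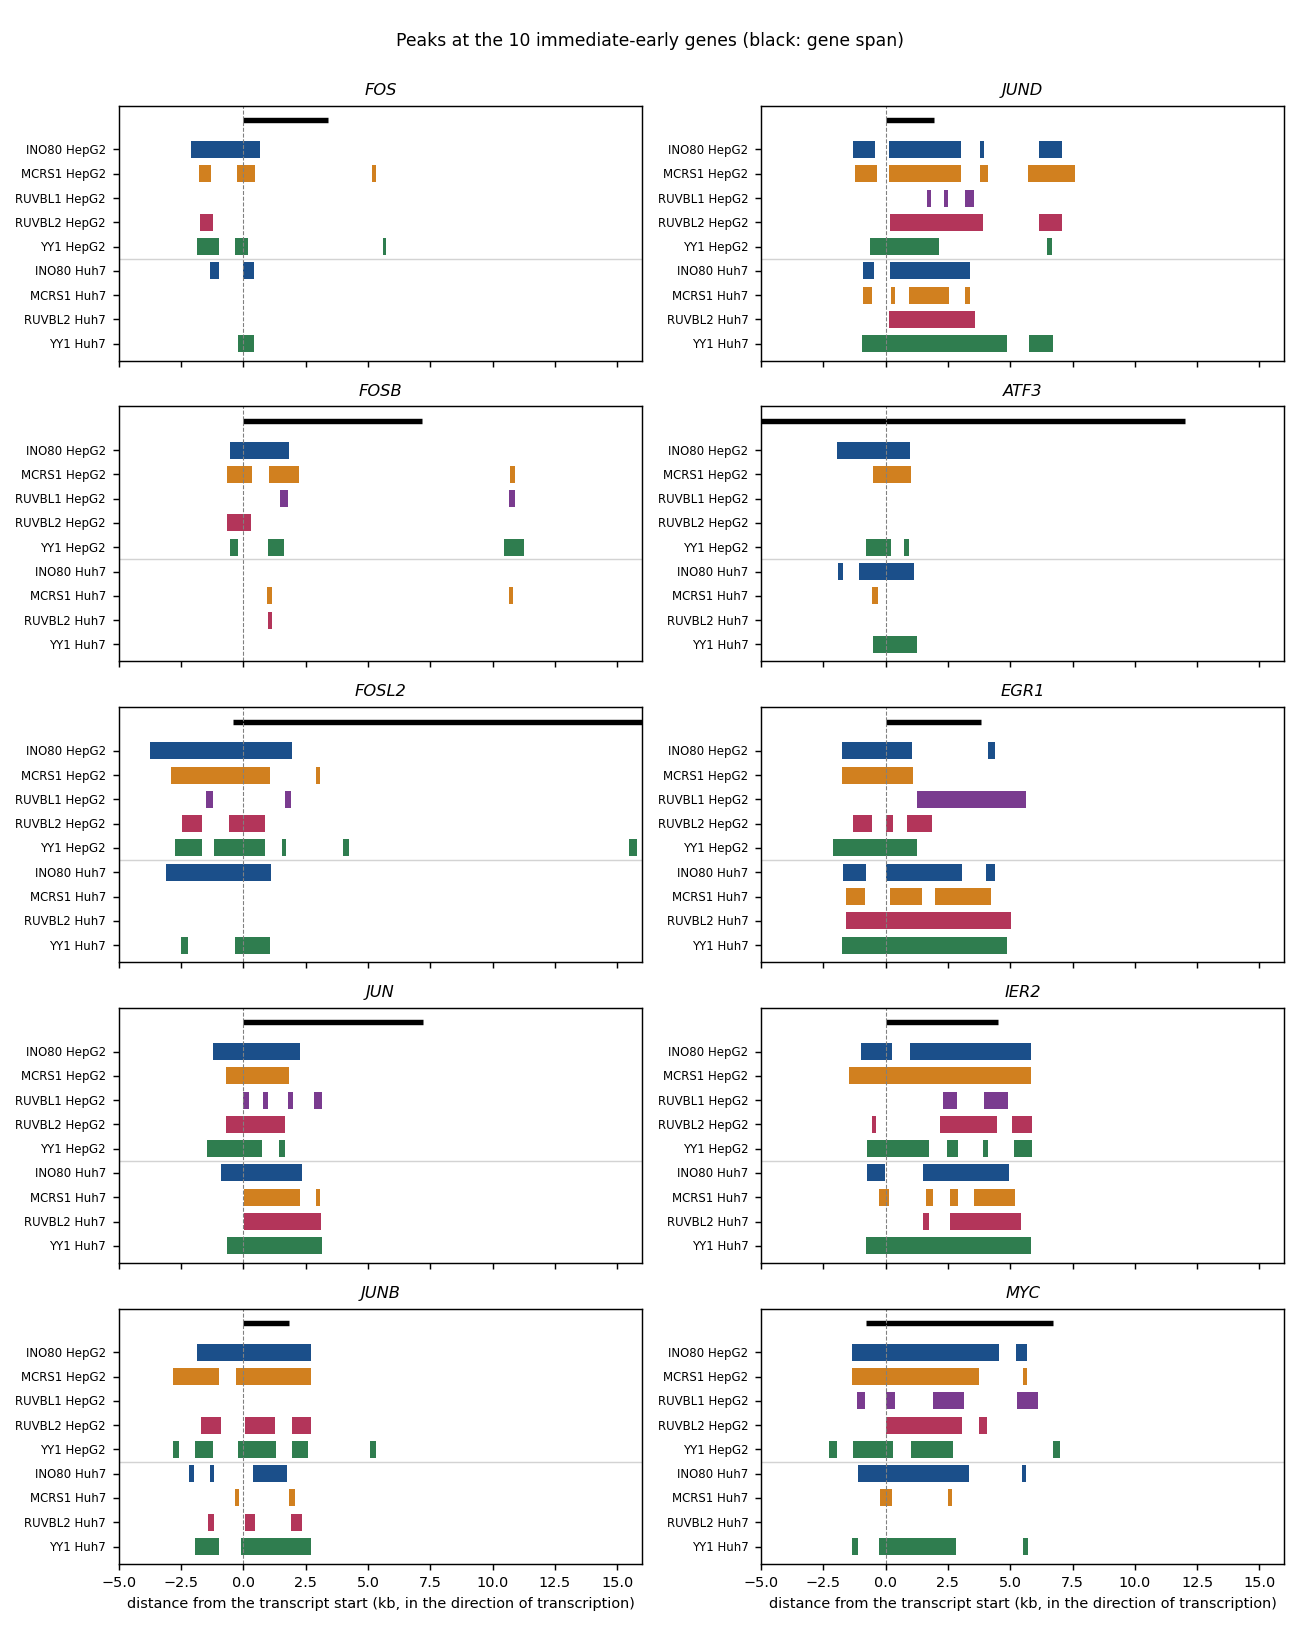
Peaks at the 10 genes, 1 panel per gene, with distance from the transcript start in kb on the horizontal axis and 1 row per factor and line. Coloured bars are peaks and the black bar is the annotated gene span, which runs past the panel at FOSL2 and ATF3. Bars at JUNB, JUND, EGR1 and IER2 run through the whole gene in some rows, while most of those at FOS, FOSL2 and ATF3 lie about the start.

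The widest peak at many of these genes was also wide for its list, though narrow peaks lay beside it, such as 147 bp of MCRS1 at FOS in HepG2. INO80 peaks of HepG2 have a median width of 666 bp over the whole list, and the widest INO80 peak at the 10 genes ran from 2365 bp at FOSB to 5885 bp at MYC. Thus 10 of the 10 genes held an INO80 peak over 2 kb, as did 15.0% of coding genes. In Huh7, where the list median is 438 bp, 7 did, against 4.27%. The counts were 7 for MCRS1 (13.0% of coding genes), 1 for RUVBL1 (0.848%), 4 for RUVBL2 (3.53%) and 5 for YY1 (5.37%) in HepG2. In Huh7 they were 2 for MCRS1 (0.575%), 4 for RUVBL2 (1.01%) and 6 for YY1 (5.05%). With a gene without a peak counted as 0, the median widest peak over the 10 genes was 3210 bp for INO80 in HepG2 and 3110 bp in Huh7, against 787 and 207 bp over coding genes. For YY1 it was 1860 and 2950 bp, against 683 and 300 bp. For MCRS1 it was 2850 and 365 bp, against 742 and 0 bp. For RUVBL2 it was 1320 and 322 bp, against 0 bp in each line, and for RUVBL1 in HepG2 314 bp, against 0 bp.

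**Figure D2:**
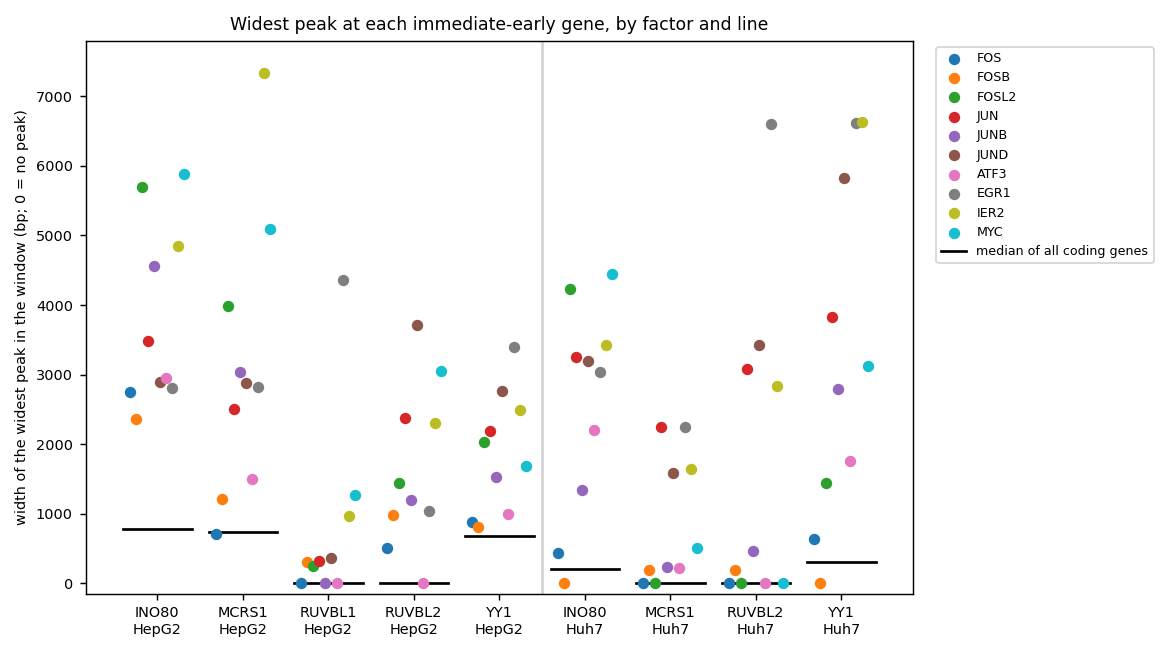
Width of the widest peak in each gene's window (vertical axis, bp) by factor and line (horizontal axis), 1 point per gene, with black bars at the median over all coding genes and 0 for no peak. INO80 in HepG2 has all 10 points between 2365 and 5885 bp, and EGR1 stands highest for RUVBL1 in HepG2 and RUVBL2 in Huh7.

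The FOS family supplies the partners with which JUN proteins form AP-1. FOS (chromosome 14, 75745529 to 75748933, plus strand) is induced and lost again fastest of the family. In HepG2, 1 INO80 peak of 2751 bp ran from 2093 bp before the start to 657 bp after it, over the 5′ untranslated region, the first coding bases and part of the first intron. MCRS1 and YY1 each split there into a peak over the start, of 712 and 547 bp, and an upstream peak, of 462 and 875 bp, and the upstream position also held the gene's RUVBL2 peak of 507 bp. Small MCRS1 and YY1 peaks of 147 bp lay past the 3′ end. In Huh7, FOS had INO80 peaks of 354 and 429 bp, 1 YY1 peak of 634 bp, and none of MCRS1 or RUVBL2. All 783 bp under INO80 in Huh7 were also under INO80 in HepG2, where they made up 28.5% of the covered bases.

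FOSB (chromosome 19, 45971253 to 45978437, plus strand), a paralogue of FOS, had INO80 and YY1 in HepG2 only. There its start lay under an INO80 peak of 2365 bp, an MCRS1 peak of 985 bp and a RUVBL2 peak of 978 bp. A further MCRS1 peak of 1215 bp and a YY1 peak of 606 bp lay in the first intron, beginning 1020 and 1007 bp after the start, and RUVBL1 had 307 bp from 1474 bp on. In Huh7 the same intron held an MCRS1 peak of 185 bp and a RUVBL2 peak of 188 bp, beginning 951 and 971 bp after the start. No list of Huh7 had a peak over the start. A site between 10437 and 11242 bp past the start, beyond the 3′ end, held YY1, MCRS1 and RUVBL1 in HepG2 and MCRS1 in Huh7.

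FOSL2 (chromosome 2, 28615315 to 28640184, plus strand), which encodes FRA2, a slower member of the family, carried one of the widest INO80 peaks of the set. It measured 5704 bp in HepG2, a width reached at 0.709% of coding genes, and 4236 bp in Huh7 (0.397%). Most of it lay before the start, 3741 bp in HepG2 and 3109 bp in Huh7, and it also reached the start of the antisense RNA gene FOSL2-AS1 in HepG2. The HepG2 peak was 69.8% covered by MCRS1, 57.2% by YY1, 38.8% by RUVBL2 and 8.4% by RUVBL1. In Huh7, YY1 covered 40.5% of the INO80 peak, and MCRS1 and RUVBL2 had no peak in the window. The INO80 peak in Huh7 fell wholly inside that of HepG2.

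JUN proteins can pair with each other or with FOS proteins. JUN (chromosome 1, 59242517 to 59249720, minus strand) has no intron in its main transcript and held every factor mapped in each line. Its INO80 peak was 3476 bp in HepG2 and 3255 bp in Huh7, and 90.5% of the bases covered in HepG2 were covered in Huh7, the highest share for INO80 among the 10 genes. In HepG2, MCRS1 (2503 bp), RUVBL2 (2377 bp) and YY1 (2194 bp) all lay over the start, and RUVBL1 was split into 4 peaks of 196 to 321 bp spread along the transcript. In Huh7, MCRS1 (2246 bp) and RUVBL2 (3082 bp) began 34 and 37 bp after the start and ran through the coding sequence into the 3′ untranslated region. YY1 in Huh7 covered 3834 bp, from 662 bp before the start to 3171 bp after it.

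JUNB (chromosome 19, 12902300 to 12904129, plus strand), which often opposes JUN, is a short gene that INO80 and MCRS1 covered whole in HepG2. The INO80 peak of 4560 bp ran from 1865 bp before the start to 865 bp past the 3′ end. In Huh7 INO80 had peaks of 169, 147 and 1338 bp, the last inside the gene and beginning 399 bp after the start. YY1 had its wider peak in Huh7, of 2787 bp over the whole gene, against a widest peak of 1524 bp in HepG2. The bases covered differed less, since YY1 in HepG2 was split into 5 peaks covering 3364 bp of the window, against 3743 bp in Huh7. RUVBL2 had 3 peaks in each line, up to 1204 bp in HepG2 and 457 bp in Huh7, at the same 3 positions: upstream, within the gene from near its start, and just past the 3′ end. RUVBL1 had none.

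JUND (chromosome 19, 18390504 to 18392432, minus strand) is made at steadier levels than its relatives, and its start was the least covered of the 10. INO80 left the start free in both lines, with a peak of 879 bp upstream and one of 2900 bp from 141 bp after the start in HepG2, and of 444 and 3190 bp from 178 bp on in Huh7. MCRS1 and RUVBL2 followed that edge. The nearest MCRS1 peak began 146 bp after the start in HepG2 and 229 bp in Huh7, and the nearest RUVBL2 peak began at 178 and 144 bp. YY1 alone covered the JUND start, by a HepG2 peak of 2764 bp and a Huh7 peak of 5820 bp. RUVBL2 peaks of 3714 and 3425 bp covered 90.8% and 92.5% of the gene span. The upstream INO80 and MCRS1 peaks of HepG2 and the YY1 peak over the JUND start in each line also lie over the start of the microRNA gene MIR3188. An MCRS1 peak of 1875 bp at the edge of the window in HepG2 lies over the start of a neighbour, IQCN.

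ATF3 (chromosome 1, 212738676 to 212794119, plus strand) encodes a stress-induced factor of the ATF/CREB family that represses many of its targets. It had INO80, MCRS1 and YY1 in both lines and no RUVBL1 or RUVBL2 in HepG2 and no RUVBL2 in Huh7, where RUVBL1 was not mapped, although its window, at 65444 bp, was the longest of the set. All of its peaks lay within 2 kb of the start of the main transcript, which begins 43427 bp inside the annotated gene span. The INO80 peak over the start was 2944 bp in HepG2 and 2198 bp in Huh7. MCRS1 measured 1500 bp in HepG2 and 216 bp in Huh7, and YY1 at its widest measured 994 bp in HepG2 and 1759 bp in Huh7.

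EGR1 (chromosome 5, 137801168 to 137804992, plus strand) encodes a zinc finger factor induced by growth factors and by liver injury. It showed the widest RUVBL1 peak in HepG2 and the widest RUVBL2 peak in Huh7 of the set. RUVBL1 formed a single peak of 4361 bp in HepG2 that began 1276 bp after the start and ran past the 3′ end, a width that 43 of all coding genes reached. The widest INO80, MCRS1 and YY1 peaks of HepG2 lay over the start instead, at 2808, 2825 and 3390 bp. RUVBL2 there had 3 peaks of up to 1036 bp, and a small INO80 peak of 260 bp lay past the 3′ end. In Huh7 the gene body was covered by every factor mapped there. RUVBL2 formed 1 peak of 6607 bp from 1586 bp before the start to 5020 bp after it, a width reached at 5 coding genes, EGR1 included. The YY1 peak of 6622 bp ran from 1760 bp before the start to 4861 bp after it. INO80 had peaks of 921, 3034 and 361 bp, and MCRS1 peaks of 788, 1271 and 2253 bp. From HepG2 to Huh7, the covered part of the gene span was 27.6% and 79.3% for INO80, 28.4% and 81.4% for MCRS1, 33.7% and 100% for RUVBL2, and 33.0% and 100% for YY1.

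IER2 (chromosome 19, 13261225 to 13265725, plus strand) encodes a small nuclear protein whose role is less well defined. Its start lies 36 bp from that of STX10, a gene of vesicle transport, so a peak over the start cannot be assigned to either gene. In HepG2 INO80 formed a peak of 1227 bp at the shared start and one of 4845 bp over the gene body, and MCRS1 a single peak of 7331 bp over all of it, a width reached at 0.327% of coding genes. RUVBL2 (2306 bp) and RUVBL1 (561 and 973 bp) lay over the body and not over the start. Huh7 showed the same arrangement for INO80, with 720 bp ending 26 bp before the start and 3419 bp over the body, and for RUVBL2, with 2843 bp over the body. YY1 in Huh7 covered the whole gene with 6629 bp, where in HepG2 it had 4 peaks of 196 to 2496 bp. MCRS1 in Huh7 was split into 4 peaks of 268 to 1644 bp.

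MYC (chromosome 8, 128747680 to 128755197, plus strand), a driver of growth and of liver cancer, had the widest INO80 peak of the 10 in both lines. It was 5885 bp in HepG2, from 1347 bp before the start to 4537 bp after it, and 4449 bp in Huh7, widths reached at 0.665% and 0.362% of coding genes. MCRS1 matched it in HepG2 with 5098 bp and had peaks of 500 and 163 bp in Huh7. Among coding genes with MCRS1 in both lines, 95.9% had the wider peak in HepG2. RUVBL2 covered 3048 bp from 35 bp after the start in HepG2 and had no peak in Huh7. RUVBL1 had 4 peaks in HepG2, of 284, 358, 1270 and 836 bp. YY1 measured 1682 bp at its widest in HepG2 and 3120 bp in Huh7, and the gene's 3′ untranslated region held small INO80 peaks in both lines, of 446 and 147 bp.

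The position of the start within the peaks differed by factor and line. YY1 lay over the start of 9 of the 10 genes in both lines, all except FOSB, against 54.7% of coding genes in HepG2 and 33.8% in Huh7. INO80 lay over 9 starts in HepG2 (48.3% of coding genes), all except JUND, and over 4 in Huh7 (24.3%), namely FOSL2, JUN, ATF3 and MYC. At FOS, JUNB, JUND, EGR1 and IER2 in Huh7 the nearest INO80 peak ended or began 1, 399, 178, 23 and 26 bp from the start. Among coding genes with an INO80 peak within 1 kb, the start itself was under a peak at 78.4% in HepG2 and 53.4% in Huh7. MCRS1 lay over 9 starts in HepG2 (45.7%) and 2 in Huh7 (7.91%), RUVBL2 over 3 (17.5%) and 1 (4.08%), and RUVBL1 over 1 (4.49%). In the 2 kb on either side of the start, more bases lay under YY1 after the start than before it at 9 of 9 genes with YY1 in Huh7, as at 61.0% of coding genes with any, and at 4 of 10 in HepG2 (52.0%). For RUVBL2 it was 6 of 6 in Huh7 (55.3%) and 5 of 9 in HepG2 (61.1%). For INO80 it was 6 of 10 in HepG2 (64.2%) and 6 of 9 in Huh7 (57.6%), for MCRS1 7 of 10 (59.2%) and 7 of 8 (46.1%), and for RUVBL1 5 of 6 (45.8%). The HepG2 counts for INO80, RUVBL2 and YY1 were thus no higher than among coding genes.

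Several of these genes were covered from end to end. At least 50% of the gene span lay under INO80 at JUNB, JUND, IER2 and MYC in HepG2, which is 4 of 10 against 2.07% of all coding genes. Short genes are covered more easily: among coding genes under 10 kb, to which 8 of the 10 belong, the share was 7.56%. In Huh7 INO80 did so at 5 genes, JUNB, JUND, EGR1, IER2 and MYC, against 0.957% of all and 3.64% of short coding genes. YY1 did so at 3 genes in HepG2 (0.823% and 3.14%) and at 4 in Huh7 (1.5% and 5.54%), where JUNB, JUND, EGR1 and IER2 were each covered in full. MCRS1 did so at 4 in HepG2 (1.73% of all and 6.17% of short coding genes) and 2 in Huh7 (0.352% and 1.33%). RUVBL2 did so at 3 (0.913% and 3.29%) and 2 (0.496% and 1.88%), and RUVBL1 at EGR1 alone (0.317% and 1.14%). FOS, FOSL2 and ATF3 reached no more than 19.4% in any list.

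**Figure D3:**
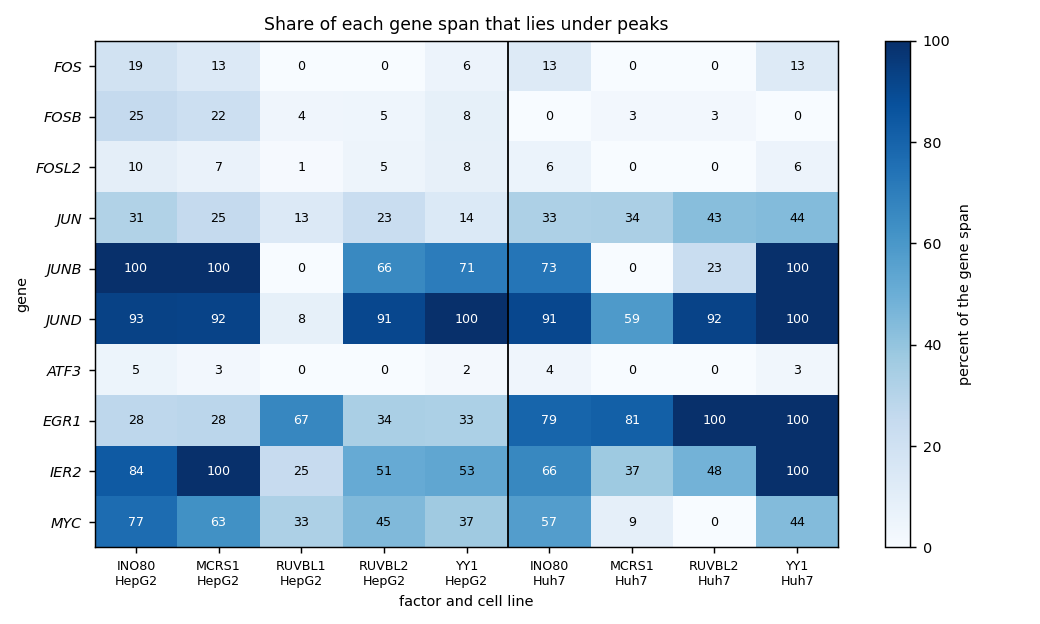
Percent of each annotated gene span (rows) that lies under peaks of each factor and line (columns), on a scale from 0 to 100. JUNB, JUND, EGR1 and IER2 are dark in several columns, EGR1 more so in Huh7 than in HepG2, and FOS, FOSB, FOSL2 and ATF3 are pale throughout.

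Between the lines, INO80 and MCRS1 were mostly wider in HepG2, as they were over all coding genes, and YY1 was mostly wider in Huh7. INO80 was found in both lines at 9 genes (54.0% of coding genes) and in HepG2 only at FOSB (17.2%). MCRS1 was found in both at 8 (27.5%) and in HepG2 only at FOS and FOSL2 (38.8%). RUVBL2 was found in both at 6 (16.5%) and in HepG2 only at FOS, FOSL2 and MYC (30.8%). YY1 was found in both at 9 (60.2%), and FOSB was again the gene with HepG2 only (16.6%). None of the 10 had INO80, MCRS1, RUVBL2 or YY1 in Huh7 alone, against 2.98%, 0.987%, 1.6% and 2.55% of coding genes. The widest peak was wider in HepG2 at 8 of the 10 genes for INO80 (61.5% of coding genes), 10 for MCRS1 (65.2%), 6 for RUVBL2 (44.4%) and 3 for YY1 (59.2%). The widest INO80 peak was wider in Huh7 at JUND and EGR1, which is 2 of 10 against 12.7% of coding genes, the MCRS1 peak at none against 2.1%, and the RUVBL2 peak at JUN, EGR1 and IER2, which is 3 against 4.49%. The widest YY1 peak was wider in Huh7 at 7 genes, JUN, JUNB, JUND, ATF3, EGR1, IER2 and MYC, against 20.1% of coding genes. Where both lines had YY1 it was wider in Huh7 at 7 of 9, against 29.2% of such coding genes. Where both lines had the factor, the HepG2 peak was the wider at 7 of 9 genes for INO80 (82.0% of such coding genes), 8 of 8 for MCRS1 (95.9%) and 3 of 6 for RUVBL2 (82.3%). By bases covered in the window, 4 of these directions turned: HepG2 and Huh7 had 4698 and 3634 bp of INO80 at JUND, 2825 and 4312 bp of MCRS1 at EGR1, 3262 and 3073 bp of RUVBL2 at IER2, and 3859 and 3528 bp of YY1 at MYC. The YY1 lists differ in median width too, 287 bp in HepG2 and 391 bp in Huh7, and in the laboratory that made the reads. The part of either in the difference was not tested.

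**Figure D4:**
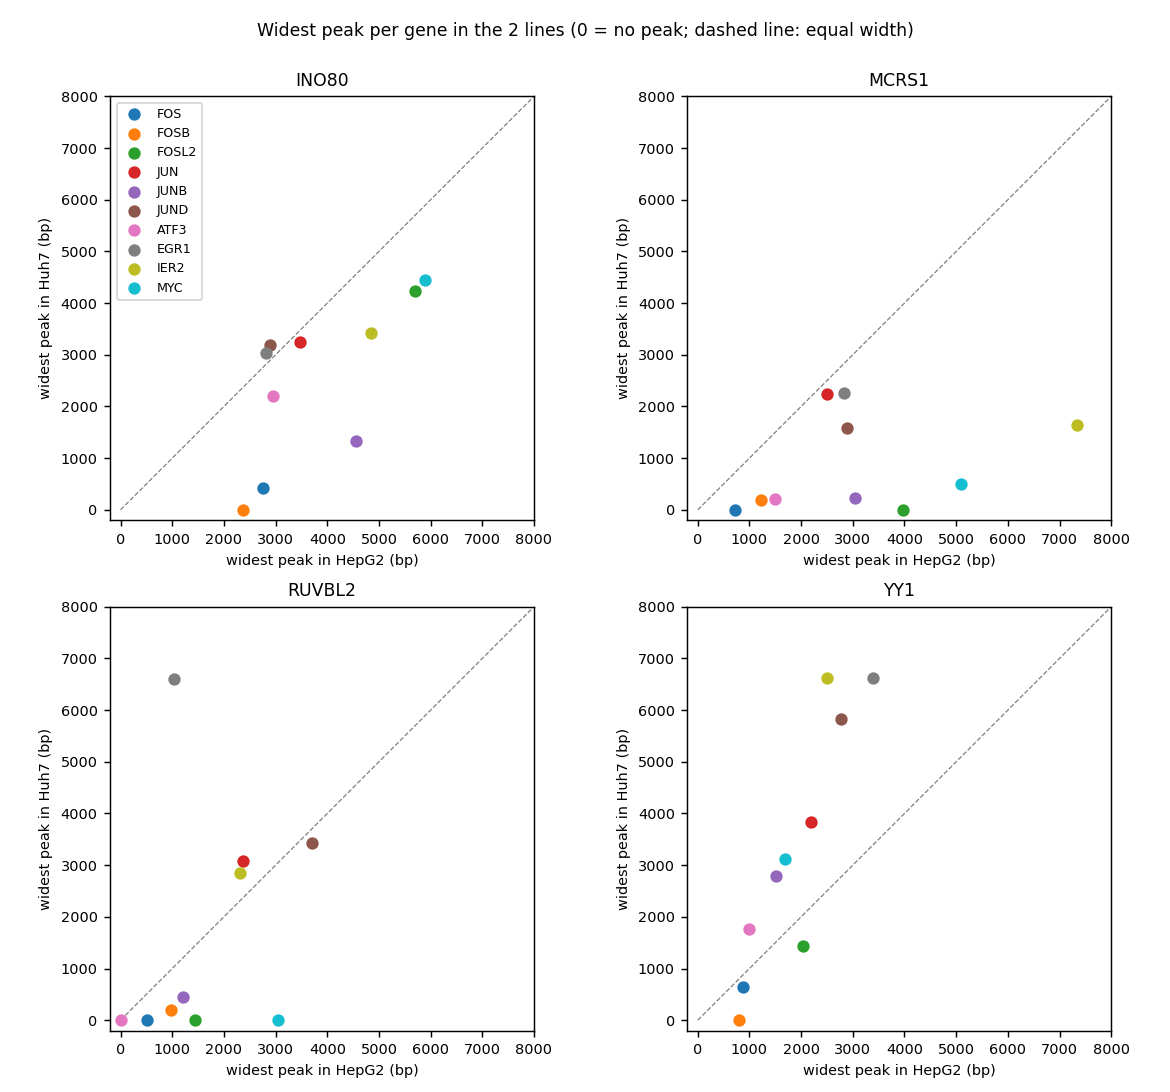
Widest peak in HepG2 (horizontal axis, bp) against Huh7 (vertical axis, bp) for the 4 factors mapped in both lines, 1 point per gene, with 0 for no peak and a dashed line at equal width. For YY1, 7 points lie above the line, and for MCRS1 all 10 lie below it.

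Partners were read at each INO80 peak of the 10 genes. Of the 16 INO80 peaks in HepG2, 15 shared bases with MCRS1, 13 with YY1, 12 with RUVBL2 and 8 with RUVBL1, where the shares over the whole list were 70.4%, 70.3%, 41.1% and 18.8%. Of the 18 in Huh7, 15 shared bases with YY1 (69.0%), 10 with MCRS1 (31.8%) and 8 with RUVBL2 (17.0%). Wide peaks meet others more easily. After all peaks were cut to 200 bp around the middle, HepG2 counts were 8 with MCRS1 (46.9% of the list), 4 with YY1 (44.0%), 5 with RUVBL2 (23.9%) and 1 with RUVBL1 (8.73%), and the Huh7 counts were 6 with YY1 (43.4%), 3 with MCRS1 (21.4%) and 3 with RUVBL2 (9.78%). The share with YY1 was then 25.0% in HepG2 and 33.3% in Huh7, that with RUVBL1 in HepG2 6.25% and that with MCRS1 in Huh7 16.7%, all 4 below the whole list. The cut also parts wide peaks whose middles lie far apart. At IER2 in HepG2, MCRS1 covered 100% of the INO80 peak of 4845 bp, yet the cut peaks did not meet. The cut counts therefore cannot show whether partners were fewer at the 10 genes. At EGR1 in Huh7, YY1 covered all 3 INO80 peaks in full and RUVBL2 covered 85.1% of one and all of the other two. At FOS in HepG2 no partner covered more than 51.7% of the INO80 peak.

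The pathway beyond the 10 genes was read from 3 further lists. The shares of all coding genes with a peak, in HepG2 and Huh7, were 71.2% and 56.9% for INO80, 76.8% and 62.8% for YY1, 66.3% and 28.5% for MCRS1, 47.3% and 18.1% for RUVBL2, and 24.3% for RUVBL1 in HepG2. Of 24 other immediate-early genes, INO80 lay at 23 in each line (95.8%). YY1 lay at 23 in HepG2 (95.8%) and 22 in Huh7 (91.7%), MCRS1 at 22 (91.7%) and 15 (62.5%), RUVBL2 at 14 (58.3%) and 13 (54.2%), and RUVBL1 at 13 (54.2%). A peak in all 9 lists was found at 8 of the 24, against 8.79% of coding genes, among them CCN2, which encodes a matricellular protein, KLF6, MCL1, IER3 and GADD45B. KLF6, a zinc finger factor gene, had INO80 at 3965 bp in HepG2 and 4407 bp in Huh7. None of the 24 was without a peak in every list. Among genes short of all 9 lists, the widest INO80 peaks were at HES1 (4696 bp), EGR2 (3550 bp) and NFKBIA (3400 bp) in HepG2 and at KLF2 (4475 bp), EGR2 (3568 bp) and EGR4 (2715 bp) in Huh7. KLF2, a zinc finger factor gene, had, like EGR1, wide peaks in Huh7, with 4907 bp for RUVBL2 and 5085 bp for YY1 against no RUVBL2 peak and 157 bp of YY1 in HepG2. YY1 was wider in Huh7 at 12 of the 24 genes, against 20.1% of coding genes. This was not particular to immediate-early genes, since it held at 7 of 17 dimer partner genes and 4 of 8 hepatocyte markers. It held at 1 of 12 upstream kinases and factors and 1 of 7 markers of other cell types. Line and laboratory cannot be told apart for YY1.

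Upstream of these genes stand the kinases and factors that read the signal. Of 12 such genes, INO80 lay at 11 in HepG2 (91.7%, against 71.2% of coding genes) and 9 in Huh7 (75.0%, against 56.9%). YY1 lay at 11 (91.7%, against 76.8%) and 10 (83.3%, against 62.8%). MCRS1 lay at 11 (91.7%, against 66.3%) and 3 (25.0%, against 28.5%), RUVBL2 at 7 (58.3%, against 47.3%) and 1 (8.33%, against 18.1%), and RUVBL1 at 5 (41.7%, against 24.3%). In Huh7 the counts for MCRS1 and RUVBL2 were thus below the share of coding genes. SRF, the gene of serum response factor, held INO80 at 2486 bp in HepG2 and 298 bp in Huh7, and CREB1 at 2329 and 847 bp. ATF1, a CREB relative, was the gene with all 9 lists, and ELK1, a partner of serum response factor, had a peak in none. INO80 over 2 kb was found at 3 of the 12 in HepG2 (15.0% of coding genes) and 1 in Huh7 (4.27%), and YY1 over 2 kb at none (5.37%) and 1 (5.05%). Of 17 genes of dimer partners of AP-1 and MYC, INO80 lay at 15 (88.2%, against 71.2%) and 13 (76.5%, against 56.9%), and YY1 at 16 (94.1%, against 76.8%) and 13 (76.5%, against 62.8%). MCRS1 lay at 16 (94.1%, against 66.3%) and 8 (47.1%, against 28.5%), RUVBL2 at 11 (64.7%, against 47.3%) and 8 (47.1%, against 18.1%), and RUVBL1 at 8 (47.1%, against 24.3%). ATF4, MNT, MLX, MXD1 and ATF2 held all 9 lists and BATF none. ATF4, a stress factor gene, had the widest RUVBL peaks among them, with 5411 bp for RUVBL1 and 5023 bp for RUVBL2 in HepG2 and 3583 bp for RUVBL2 in Huh7. MAF, a basic leucine zipper factor gene, held INO80 at 3483 bp in HepG2 and 4260 bp in Huh7. MAX, the partner of MYC, chosen after its values were seen, held INO80 at 767 bp in HepG2 and no peak of any factor in Huh7.

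**Figure D5:**
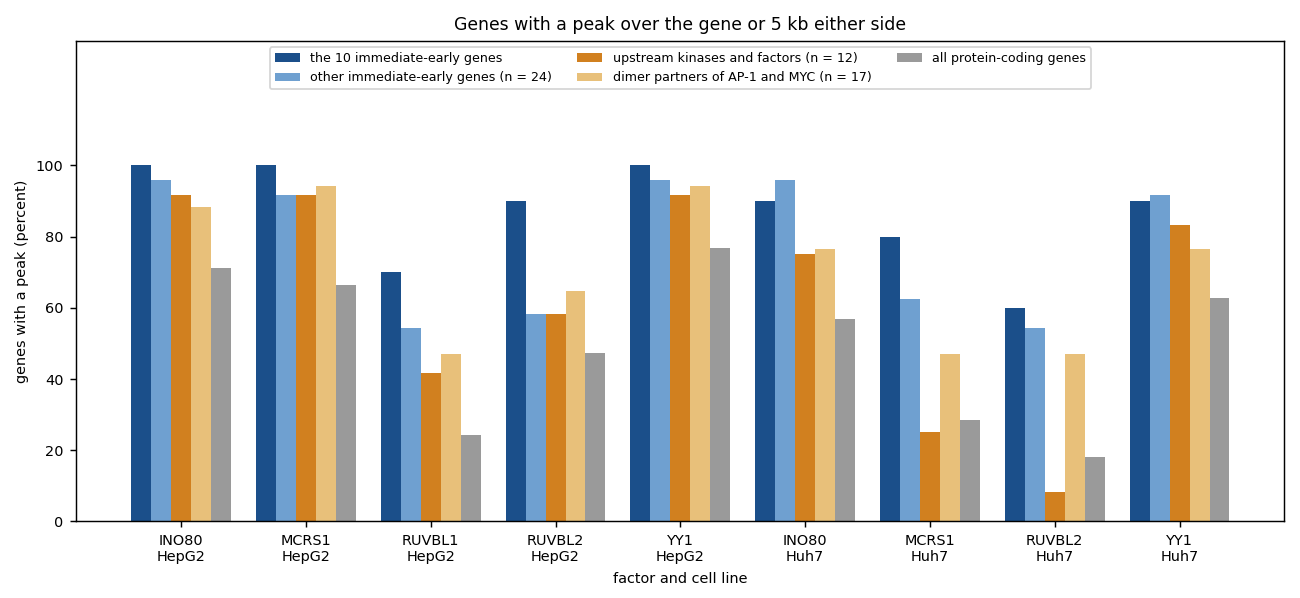
Percent of genes with a peak over the gene or within 5 kb (vertical axis) in each peak list (horizontal axis), for the 10 genes, 3 related lists and all coding genes. The 10 genes stand at 60% for RUVBL2 in Huh7 where all coding genes stand at 18.1%, and the upstream kinases and factors at 8.33%.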

How the data were processed

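The 9 peak lists hold positions only, 1 list per factor and line, as deposited by the authors. Bowtie2, MACS2, deepTools, bedtools and SAMtools and the build hg19 are listed in the submitters' processing notes; versions, the peak filter and any pooling of libraries are not given in the sources used here. Peak edges were read on hg19 beside GENCODE release 44 on that build, with 20162 coding genes and the MANE Select start of each gene. A peak counted for a gene when at least 1 bp fell within the gene or 5 kb of it. Python 3.11.15, numpy 2.4.6, pandas 2.3.3 and matplotlib 3.10.9 were used, and the overlap code was checked on planted peaks. The 10 genes and the further lists (other immediate-early genes, upstream kinases and factors, dimer partners, hepatocyte markers, markers of other cell types) were chosen with earlier results of these data known. All 10 were named. Of each further list, genes in no list, up to 5 in all 9 and up to 3 others with the widest INO80 peak in each line could be named. Of 8 markers of other cell types, 7 matched the annotation. The table from the EPZ-6438 experiment was not used here. Alternatives covered the window, overlap, peak width, list length, background and partner overlap.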

Additional observations from a re-analysis of the deposited data

How the results depend on the processing

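Of 140 counts, shares and medians recomputed under the alternatives, 110 stayed within 1.5 times the reported value and 30 moved further. Within 1 kb of the start, RUVBL1 in HepG2 lay at 2 of the 10 genes, against 15.7% of coding genes, so the contrast of 7 against 24.3% rests on peaks farther from the start. With the wider 50% of each list, and with the 3322 widest peaks of each list, MCRS1 in Huh7 lay at 5 genes (16.4% and 17.9% of coding genes), and MCRS1 in both lines at 5. Over all 64440 annotated genes the share with a peak was 37.1% for INO80, 34.7% for MCRS1, 12.1% for RUVBL1, 23.6% for RUVBL2 and 44.0% for YY1 in HepG2, and 28.8%, 14.0%, 8.63% and 33.0% for INO80, MCRS1, RUVBL2 and YY1 in Huh7. By bases covered in place of the widest peak, medians were 608 bp for RUVBL1, 2290 bp for RUVBL2 and 3160 bp for YY1 in HepG2 and 641 bp for RUVBL2 in Huh7, and EGR1 was the 1 gene with more INO80, and the 1 with more MCRS1, in Huh7. The line with more turned at JUND for INO80, EGR1 for MCRS1, IER2 for RUVBL2 and MYC for YY1. With peaks set to 200 bp, INO80 peaks sharing bases fell to 8 with MCRS1, 1 with RUVBL1, 5 with RUVBL2 and 4 with YY1 in HepG2, and to 3 with MCRS1, 3 with RUVBL2 and 6 with YY1 in Huh7. With at least 50% of the INO80 peak covered, the HepG2 counts of 16 were 2 for RUVBL1 (5.31% of the whole list), 7 for RUVBL2 (19.8%) and 8 for YY1 (53.3%), the last no longer above the list. MCRS1 in HepG2 was at 13 (81.2%, against 62.0%). The Huh7 counts of 18 were 14 for YY1 (77.8%, against 56.1%), 7 for MCRS1 (38.9%, against 15.4%) and 7 for RUVBL2 (38.9%, against 6.55%). Apart from what these settings construct, the cause was not tested. No paired analysis was possible because each factor and line has 1 list with no value per library, and for the same reason no library could be left out. Read depth and enrichment are unknown, so no stricter enrichment threshold was tried.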

Other observations

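Several hepatocyte marker genes carried very wide peaks in HepG2. INO80 reached 15541 bp at ALB, the serum albumin gene, and 9802 bp at APOB, a lipoprotein gene, and in Huh7 the values were 747 and 2404 bp. RUVBL2 at APOB measured 11082 bp in HepG2 and 1651 bp in Huh7. TTR, another of the 8 markers, went the other way, with INO80 at 216 bp in HepG2 and no peak in any Huh7 list. FOXA2, a liver transcription factor gene, kept INO80 at 4114 and 2787 bp and YY1 at 3414 and 3777 bp. The median widest INO80 peak over the 8 markers was 4270 bp in HepG2 and 542 bp in Huh7, and over the 10 immediate-early genes it was 3210 and 3110 bp. GFAP, a glial gene, held a peak of 535 to 889 bp in its window in all 9 lists. Its start lay under no peak in any list, so whether these peaks belong to GFAP is unknown. These genes were singled out after their values were seen, and no test was made.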
